A study of Homo sapiens with 18 samples.

Results

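The EGF family of growth factors and its receptors were followed through senescence, mitochondrial clearance and its partial replacement in IMR90 cells, an established line of human fetal lung fibroblasts. The members were matched by gene symbol, a rule that uses no measured value, though the list was chosen with earlier results known. They are 9 of the 57500 genes in the count table. The 6 ligands are AREG, EREG, HBEGF, NRG1, TGFA and BTC, and the 3 receptors are EGFR, ERBB2 and ERBB3. RNA-seq libraries were made from 6 groups of 3 libraries each. Prol cells were proliferating, and Sen (IR) cells had been made senescent by irradiation. The other 4 groups were irradiated and then treated with CCCP, an uncoupler of mitochondria, and are called Sen (IR) + CCCP, Sen (IR) + CCCP + acetate, Sen (IR) + CCCP + mtDNA, and Sen (IR) + CCCP + mtDNA + acetate. According to the study's methods, the cells used for clearance overexpressed Parkin, so that CCCP removes mitochondria by mitophagy. Sodium acetate was supplied after clearance, and mtDNA was introduced late by transfection. The labels name IMR90 only and do not say whether Prol or Sen (IR) cells carried the transgene. If they did not, the transgene and clearance cannot be told apart in comparisons of cleared cells with these groups. They hold no mock-transfected group, so mtDNA and the transfection itself cannot be told apart. No group was given CCCP and kept its mitochondria, so exposure to CCCP and loss of mitochondria cannot be told apart either. Clearance below stands for both. The study describes its replicates as independent experiments.

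EGF-family ligands are made as precursors in the cell membrane, and proteases of the ADAM family cut them free, so that they act on the cell that made them or on its neighbours. AREG (amphiregulin) binds EGFR. EREG (epiregulin), HBEGF (heparin-binding EGF-like growth factor) and BTC (betacellulin) bind EGFR and ERBB4, TGFA (transforming growth factor alpha) binds EGFR, and NRG1 (neuregulin 1) binds ERBB3 and ERBB4. ERBB2 binds no known ligand and acts as a partner of the other receptors, and ERBB3 has little kinase activity of its own and signals through such partners. The bound receptors switch on the RAS-ERK cascade, which in turn induces its own feedback inhibitors. AREG and EREG are known members of the senescence-associated secretory phenotype (SASP) of fibroblasts.

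AREG and EREG are neighbours on chromosome 4. On GRCh38 (GENCODE version 44), EREG lies at chr4:74365145-74388749 and AREG at chr4:74445136-74455005, both on the plus strand, with their starts 80.0 kb apart and no protein-coding gene lying wholly between them. BTC lies further along the same arm at chr4:74744759-74794523 on the minus strand, with its start 349.4 kb beyond that of AREG.

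Promoter windows from RefSeq (GRCh38.p14), from 250 bases before to 50 bases after the start, were found for 7 of the 9 members. Those of the neighbouring genes AREG and EREG are shown, because these ligands had the widest range of levels among the members. The 150 bases before each start are given on the plus strand, 5′ to 3′, at chr4:74444986-74445135 for AREG and chr4:74364995-74365144 for EREG, with motif matches in capitals.
AREG: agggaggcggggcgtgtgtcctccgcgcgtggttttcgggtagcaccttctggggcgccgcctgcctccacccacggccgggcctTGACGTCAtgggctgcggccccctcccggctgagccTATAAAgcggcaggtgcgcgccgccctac
EREG: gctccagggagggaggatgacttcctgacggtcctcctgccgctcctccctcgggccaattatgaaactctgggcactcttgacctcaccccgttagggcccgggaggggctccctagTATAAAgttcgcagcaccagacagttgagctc

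The windows were searched on both strands for the letters TGACGTCA (the cAMP response element), TGANTCA (the AP-1 site) and TATAAA (the TATA box), which do not overlap in the sequences shown. Both windows held TATAAA, from -29 to -24 relative to the start in AREG and from -32 to -27 in EREG, a motif present in 11.5% of the 35093 windows in the RefSeq table. The AREG window also held TGACGTCA, from -65 to -58, which is present in 1.85% of windows, and the EREG window did not. Neither held TGANTCA, which is present in 7.71% of windows.

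The other members lie elsewhere in the genome, on GRCh38 (GENCODE version 44): TGFA at chr2:70447284-70554193 (minus), HBEGF at chr5:140332843-140346603 (minus), EGFR at chr7:55019017-55211628 (plus), NRG1 at chr8:31639222-32855666 (plus), ERBB3 at chr12:56076799-56103505 (plus) and ERBB2 at chr17:39687914-39730426 (plus). ERBB2 overlaps 2 tested genes on the opposite strand, PGAP3 and MIEN1, and since the strand setting of the counting was not stated, reads from the shared bases cannot be told apart.

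The libraries held between 24624886 and 46224280 counts on genes, and genes encoded in mtDNA took 1.75% to 2.89% of the counts in Prol and Sen (IR) but 0.0461% to 0.237% after CCCP. Among the genes used to check the labels, MKI67, a proliferation marker, fell by 1.95 on the log2 scale from Prol to Sen (IR), with an adjusted p of 3.36e-12, whereas CDKN1A, which encodes the cell cycle inhibitor p21, rose by 0.50 (adjusted p = 1.76e-08). After CCCP, MKI67 was 1.00 higher than in Sen (IR) (adjusted p = 9.4e-08). Replicate 3 of Sen (IR) and replicate 2 of Sen (IR) + CCCP + mtDNA + acetate stood apart from the others of their groups, with a chi-square per degree of freedom of 25.3 to 31.8 against them, where every other pair within a group had 2.91 to 8.52. The latter library also had the 0.237% of mtDNA-encoded counts, and results that change without either library are given below. All 9 fibroblast markers were detected in every group. All 9 were called lower in Sen (IR) + CCCP than in Sen (IR), as were 31.3% of all genes tested. Their summed level went from between 12500 and 14400 TPM (a unit corrected for gene length) in Prol to between 7230 and 8890 in Sen (IR) and between 1150 and 1870 after CCCP. Of 6 immune markers, PTPRC, CD3E, MS4A1 and ITGAM were at or near 0 TPM in every group, and the 6 summed to 1.87 to 5.34 TPM. Of 8 epithelial markers, KRT5, KRT14, GRHL2 and ESRP1 were at or near 0, and the 8 summed to 44.6 to 48.9 TPM in Prol, 15.8 to 21.7 in Sen (IR) and 4.9 to 11.6 after CCCP. Of 5 endothelial markers, PECAM1, CDH5 and VWF were at or near 0, while the sum of 175 to 310 TPM was carried by TEK, at group means of 186.4 to 291.2 TPM. The part of these marker changes in the results was not tested.

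Levels of one gene in different groups are given as TMM-scaled CPM (counts scaled to library size), the scale on which the groups were tested, and levels of different genes are set beside each other in TPM, which corrects for gene length. Fold changes are log2 differences ± SE from an edgeR quasi-likelihood fit across 16994 genes, and a gene was called where its Benjamini-Hochberg adjusted p over all of them was under 0.05. In all, 8 of the 9 members passed the filter on low counts. TGFA did not, with 0 to 3 counts per library and 0 in each Prol library, where a count of 0 allows up to 0.117 CPM. Counting limits of this kind cover counting error only.

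**Figure D1:**
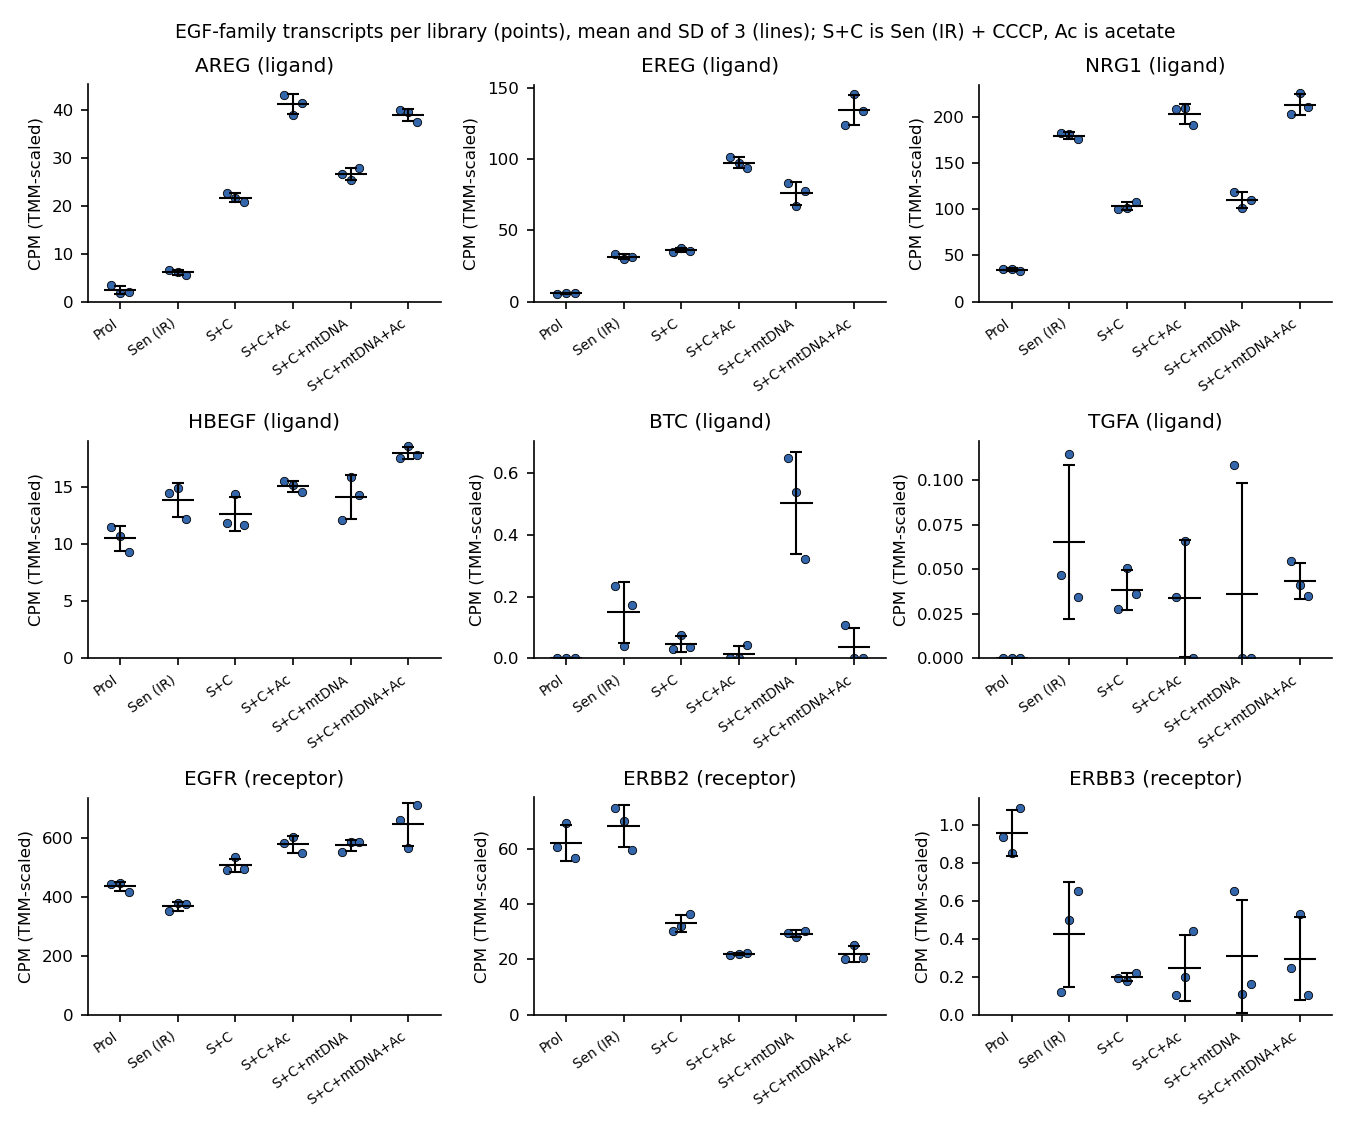
Level of each member in TMM-scaled CPM (vertical axis, linear and from 0) in the 6 groups (horizontal axis), where points are libraries and lines are the mean and SD of 3 libraries. AREG ran from a mean of 2.39 in Prol to 41.3 in Sen (IR) + CCCP + acetate, and EREG from 5.83 in Prol to 134.2 in Sen (IR) + CCCP + mtDNA + acetate, whereas BTC, TGFA and ERBB3 were near the limit of detection in most libraries.

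Irradiation-induced senescence was accompanied by higher ligand transcripts. From Prol to Sen (IR), EREG, NRG1, AREG and HBEGF were called higher and 2 of the 3 receptors lower. Of all genes tested, 26.7% were called higher and 29.9% lower. EREG was present at 5.28, 6.15 and 6.05 CPM in the 3 Prol libraries and at 33.3, 29.9 and 31.4 CPM in the 3 Sen (IR) libraries. The groups did not overlap, and the difference was 2.43 ± 0.09 (adjusted p = 2e-15). In bulk libraries such as these, fewer cells that express a gene and less of its RNA per cell cannot be told apart. NRG1 was at 35.6, 35.2 and 32.9 CPM in Prol and at 183, 181.2 and 175.8 CPM in Sen (IR), a difference of 2.38 ± 0.06 (adjusted p = 4.31e-18). AREG was at 3.40, 1.74 and 2.03 CPM in Prol and at 6.62, 6.26 and 5.58 CPM in Sen (IR), a difference of 1.40 ± 0.14 (adjusted p = 3.15e-08). Each of these 3 ligands was thus higher in every Sen (IR) library than in any Prol library. HBEGF moved less, from 11.5, 10.7 and 9.30 CPM to 14.4, 14.9 and 12.2 CPM, which was 0.41 ± 0.11 (adjusted p = 0.00233). BTC, which is described without a test, had 0 counts in all 3 Prol libraries and 10, 1 and 5 counts in Sen (IR). Its mean in Sen (IR) was 1.45-fold that of a floor of 3 counts per library in Prol, and replicate 2 lay under that floor.

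Of the receptors, EGFR was lower in every Sen (IR) library than in any Prol library. It was at 443.3, 448.3 and 419 CPM in Prol and at 351.2, 378.4 and 375.8 CPM in Sen (IR), and this fall of 0.25 ± 0.06 on the log2 scale passed the test (adjusted p = 0.00266). ERBB2 did not pass it, with a mean of 62.1 ± 6.45 CPM in Prol and 68.1 ± 7.6 CPM in Sen (IR) (SD, n = 3) and a log2 difference of 0.14 ± 0.09 (edgeR adjusted p = 0.186). Without Sen (IR) replicate 3, the library that stood apart, the ERBB2 difference was 0.22 and passed the test (adjusted p = 0.0345). ERBB3 was barely detected, with 24, 23 and 42 counts in Prol and 5, 13 and 19 in Sen (IR). Its log2 difference of -1.28 ± 0.54 had an adjusted p of 0.0476 and lost its call when any library of these groups other than Sen (IR) replicate 3 was left out (log2 differences of -1.46 to -0.74, adjusted p = 0.0596 to 0.264).

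Among the ligands, levels after CCCP moved in different directions. In Sen (IR) + CCCP relative to Sen (IR), AREG, EREG and EGFR were higher and NRG1 and ERBB2 were lower, where 34.0% of all genes tested were higher and 31.3% lower. The numbers of members called in each direction were near those shares. AREG reached 22.8, 21.7 and 20.8 CPM in the 3 cleared libraries, against the 5.58 to 6.62 CPM of Sen (IR), a difference of 1.82 ± 0.11 (adjusted p = 1.82e-12). It was the member with the largest rise in this comparison. NRG1 went the other way, to 99.9, 101.9 and 108.0 CPM from 175.8 to 183 CPM, which was -0.80 ± 0.06 (adjusted p = 4.1e-11), but it stayed above its level in Prol by 1.58 ± 0.06 (adjusted p = 9.87e-16), in a comparison where 69.2% of all genes tested were called in either direction. EREG was at 34.8, 37.8 and 35.4 CPM against 33.3, 29.9 and 31.4 CPM in Sen (IR). All 3 cleared libraries were above the 3 of Sen (IR), but the difference was only 0.19 ± 0.07 (adjusted p = 0.028), and it missed the threshold when Sen (IR) + CCCP replicate 2, Sen (IR) replicate 2 or Sen (IR) replicate 3 was left out (adjusted p = 0.109, 0.0782 and 0.0548). HBEGF was at 11.8, 14.3 and 11.6 CPM, a log2 difference of -0.13 ± 0.10 that did not pass the test (adjusted p = 0.276). BTC, again described without a test, had 5 counts in the 3 cleared libraries together and 16 in Sen (IR).

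Of the receptors, EGFR was at 494.1, 535.1 and 496.1 CPM after CCCP, above every Prol and Sen (IR) library, with a difference from Sen (IR) of 0.46 ± 0.06 (adjusted p = 1.59e-06). ERBB2 was at 30.4, 32.2 and 36.4 CPM, against 59.7 to 74.5 CPM in Sen (IR), a log2 difference of -1.05 ± 0.09 (adjusted p = 7.96e-10). EGFR and ERBB2 thus changed in opposite directions after clearance. ERBB3 had 6 or 7 counts in each cleared library and did not differ by the test (-1.01 ± 0.67, adjusted p = 0.191). On the deposited TPM scale the same 2 groups were shifted: the median of 14074 genes rose by 0.46 on the log2 scale (and by 0.28 from Sen (IR) to both agents, with -0.14 from Sen (IR) + CCCP to both), where the fitted median of all genes tested was 0.03. HBEGF therefore changed sign between the scales, with 18.2 TPM in Sen (IR) and 22.4 TPM after CCCP, a log2 ratio of 0.29 that lies below that shift. The log2 ratios of TPM were 2.25 for AREG, 0.62 for EREG, 0.89 for EGFR, -0.37 for NRG1 and -0.62 for ERBB2, so these 5 genes kept their sign.

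**Figure D2:**
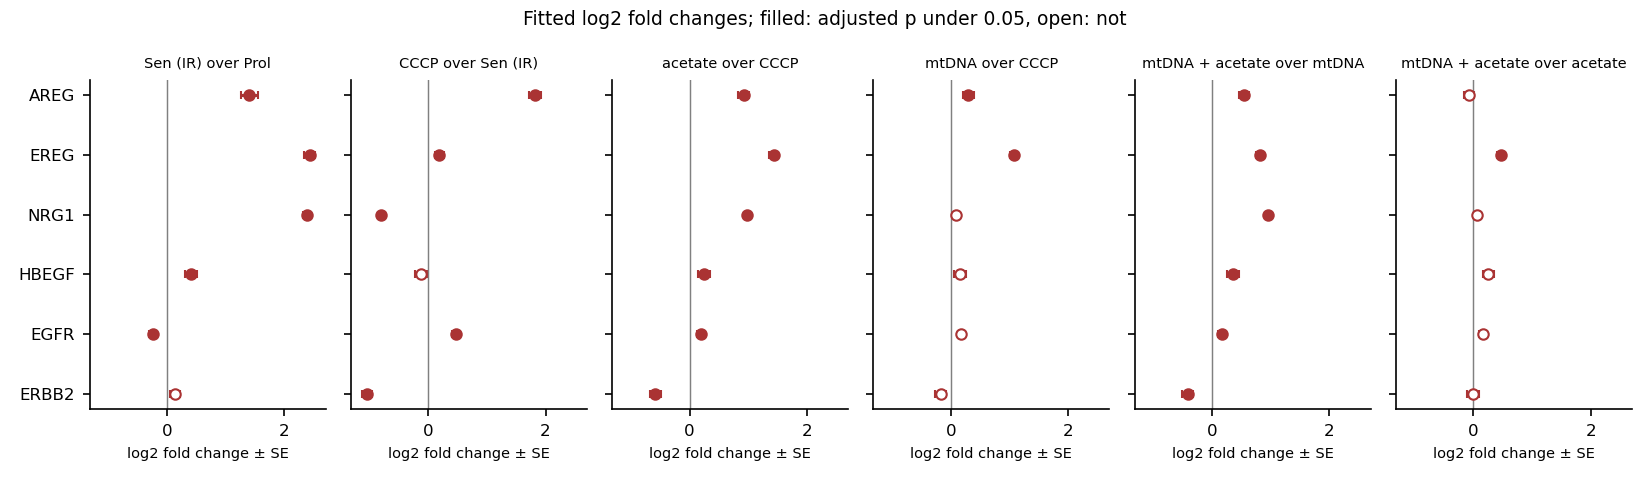
Log2 fold changes (horizontal axis, points with SE bars) of 6 members in 6 comparisons from the fit across all genes, filled where the adjusted p was under 0.05. AREG led the rise after CCCP at 1.82, NRG1 and ERBB2 fell there by 0.80 and 1.05, and EREG was the only one of the 6 with a call in every panel.

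Acetate, given to cleared senescent cells, was accompanied by higher levels of 4 ligands. In Sen (IR) + CCCP + acetate relative to Sen (IR) + CCCP, AREG, EREG, NRG1, HBEGF and EGFR were higher and ERBB2 was lower, while 28.8% of all genes tested were higher and 28.3% lower. EREG was at 101.5, 96.9 and 93.6 CPM with acetate, against 34.8 to 37.8 CPM without, a difference of 1.43 ± 0.07 (adjusted p = 2.13e-13). NRG1 was at 209.1, 210 and 191.1 CPM, a difference of 0.98 ± 0.06 (adjusted p = 2.8e-12). AREG was at 43.1, 39.1 and 41.6 CPM, a difference of 0.92 ± 0.09 (adjusted p = 1.32e-08). For all 3 ligands the groups did not overlap. NRG1, which had fallen with clearance, was then above Sen (IR) by 0.18 ± 0.06 (adjusted p = 0.00867), in a comparison where 65.9% of all genes tested were called. HBEGF was at 15.5, 15.1 and 14.5 CPM and rose by 0.25 ± 0.10 (adjusted p = 0.0409), a call that was lost without acetate replicate 1 or 2 or Sen (IR) + CCCP replicate 1 or 3 (adjusted p = 0.0601 to 0.11). BTC had 2 counts in the 3 acetate libraries together.

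EGFR was at 583.2, 606 and 549.4 CPM with acetate, a small rise of 0.19 ± 0.06 (adjusted p = 0.0161). ERBB2 was at 21.6, 21.9 and 22.3 CPM, below every library without acetate, with a fall of 0.59 ± 0.09 on the log2 scale (adjusted p = 1.24e-05). The directions of EGFR and ERBB2 after clearance were therefore also those with acetate. ERBB3 had 3, 9 and 21 counts and did not pass the test (0.43 ± 0.68, adjusted p = 0.613).

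Transfected mtDNA was accompanied by a narrower set of changes. In Sen (IR) + CCCP + mtDNA relative to Sen (IR) + CCCP, EREG and AREG were higher and no member was lower, leaving aside BTC, which is described without a test, where 10.7% of all genes tested were higher and 7.40% lower. EREG was at 83.0, 67.3 and 77.6 CPM, a difference of 1.08 ± 0.07 (adjusted p = 5.3e-10), and every mtDNA library was above every library without it. AREG was at 26.7, 25.5 and 28.03 CPM, a smaller difference of 0.30 ± 0.09 (adjusted p = 0.0297). That call was lost without mtDNA replicate 1 or 3 or Sen (IR) + CCCP replicate 2 or 3 (0.27 to 0.31, adjusted p = 0.0608 to 0.103). NRG1, at 118.5, 101.9 and 109.6 CPM, overlapped the cleared cells and did not differ by the test (0.09 ± 0.06, adjusted p = 0.309). It remained 0.71 ± 0.06 below Sen (IR) on the log2 scale (adjusted p = 2.74e-10), where 67.5% of all genes tested were called.

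BTC, a ligand of EGFR and ERBB4, had its highest level in cells given mtDNA without acetate. It had 18, 15 and 10 counts in the 3 mtDNA libraries, against 1, 3 and 1 in Sen (IR) + CCCP, 0, 0 and 2 with acetate, and 4, 0 and 0 with both agents. All 3 mtDNA libraries were thus above every other library of cleared cells, but by few reads. The pooled counts of 43 and 5 gave a ratio of 10.3 after library scaling, with an exact 95% interval of 4.07 to 33.2 that covers counting error only. BTC reached the level of the filter in all 3 mtDNA libraries and in 0 libraries of every other group, so it was tested only because of its counts in that group. Its fitted differences from the mtDNA group are therefore favoured by the filter and are not given as tests. Against the 16 counts of Sen (IR), the ratio was 3.04 (1.68 to 5.78). Against the 4 counts of Sen (IR) + CCCP + mtDNA + acetate it was 11.2 (4.05 to 42.8), and all 4 of these came from 1 library. At a mean of 0.911 ± 0.298 TPM (SD), BTC was still far below HBEGF, at 23.7 ± 3.26 TPM, in this group.

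HBEGF, at 12.1, 15.9 and 14.2 CPM, did not differ with mtDNA by the test (0.15 ± 0.10, adjusted p = 0.35). EGFR, at 553.2, 586.2 and 588.8 CPM, was above every library of Sen (IR) + CCCP, and its difference of 0.18 ± 0.06 missed the threshold (adjusted p = 0.0571). It passed under 5 of 14 alternatives, among them a fit to those 2 groups alone (adjusted p = 0.00382). ERBB2, at 29.6, 27.9 and 30.2 CPM, was below every library of Sen (IR) + CCCP, and its log2 difference of -0.17 ± 0.09 did not pass (adjusted p = 0.23). ERBB3 had 18, 3 and 5 counts (0.63 ± 0.71, adjusted p = 0.613).

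With mtDNA and acetate together, the highest EREG levels of the series were measured. EREG was at 123.9, 145.2 and 133.5 CPM, above every library of the other 5 groups. Relative to Sen (IR) + CCCP, 5 members were higher and ERBB2 was lower (30.3% and 31.4% of all genes tested), with differences of 1.90 ± 0.07 for EREG (adjusted p = 3.05e-15), 1.05 ± 0.06 for NRG1 (adjusted p = 8.51e-13), 0.84 ± 0.09 for AREG (adjusted p = 5.33e-08), 0.50 ± 0.10 for HBEGF (adjusted p = 1.95e-04) and 0.35 ± 0.06 for EGFR (adjusted p = 7.26e-05). ERBB2 fell there by 0.59 ± 0.09 on the log2 scale (adjusted p = 1.3e-05). HBEGF reached 17.5, 18.5 and 17.8 CPM with both agents, above every library of the other groups, and ERBB2 was at 19.97, 25.3 and 20.6 CPM. The 3 comparisons with Sen (IR) + CCCP share its libraries.

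Adding acetate to mtDNA moved most members. In Sen (IR) + CCCP + mtDNA + acetate relative to Sen (IR) + CCCP + mtDNA, NRG1, EREG, AREG, HBEGF and EGFR were higher and ERBB2 was lower, where 27.4% of all genes tested were higher and 29.9% lower. NRG1 was at 203.4, 225.7 and 210.7 CPM against 101.9 to 118.5 CPM, a difference of 0.95 ± 0.06 (adjusted p = 4.9e-12). EREG rose by 0.82 ± 0.07 (adjusted p = 1.25e-09), and AREG, at 39.96, 39.5 and 37.6 CPM, by 0.55 ± 0.09 (adjusted p = 2.33e-05). HBEGF rose by 0.35 ± 0.10 (adjusted p = 0.00587). ERBB2 fell by 0.42 ± 0.10 on the log2 scale (adjusted p = 7.55e-04). EGFR, at 662.4, 567.9 and 712.4 CPM, was 0.17 ± 0.06 higher (adjusted p = 0.0298). The groups overlapped, since replicate 2 of the combined group, the library that stood apart, lay within the range of the mtDNA group, and the call was lost in a fit to the 2 groups alone (adjusted p = 0.0607), without either of the 2 higher libraries, or without mtDNA replicate 1 (adjusted p = 0.0592 to 0.158).

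Adding mtDNA to acetate moved only EREG among the 8 tested members. In Sen (IR) + CCCP + mtDNA + acetate relative to Sen (IR) + CCCP + acetate, 6.57% of all genes tested were higher and 6.0% lower. EREG was 0.46 ± 0.07 higher (adjusted p = 7.96e-05), and the groups did not overlap. AREG differed by -0.08 ± 0.09 (adjusted p = 0.622), NRG1 by 0.07 ± 0.06 (adjusted p = 0.475), HBEGF by 0.25 ± 0.10 (adjusted p = 0.098), EGFR by 0.16 ± 0.06 (adjusted p = 0.11) and ERBB2 by -0.01 ± 0.10 (adjusted p = 0.981). Without the library of the combined group that stood apart, replicate 2, the EGFR difference was 0.25 and passed the test (adjusted p = 0.00431), and that of EREG was 0.40 (adjusted p = 2.13e-04). HBEGF passed in a fit to the 2 groups alone (0.25, adjusted p = 0.0392). The counts of BTC and ERBB3 were too low in these groups for a modest difference to be detectable.

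The change of EREG with mtDNA depended on acetate on the log2 scale. It was 1.08 ± 0.07 without acetate and 0.46 ± 0.07 with it, and the difference between these, the interaction of mtDNA and acetate, was -0.61 ± 0.10 (adjusted p = 0.00369). EREG was the 1 member called, where 0.0765% of all genes tested had a positive interaction and 0.583% a negative one. In mean CPM, EREG went from 36.0 to 76.0 without acetate and from 97.4 to 134.2 with it. AREG had an interaction of the same sign, -0.38 ± 0.13, that did not pass the test (adjusted p = 0.232). NRG1 was at -0.02 ± 0.08 (adjusted p = 0.952), EGFR at -0.02 ± 0.09 (adjusted p = 0.964), HBEGF at 0.10 ± 0.14 (adjusted p = 0.846) and ERBB2 at 0.17 ± 0.13 (adjusted p = 0.687).

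Set against senescent cells that kept their mitochondria, cells given both agents after clearance had higher levels of all 4 abundant ligands. In Sen (IR) + CCCP + mtDNA + acetate relative to Sen (IR), 5 members were higher and ERBB2 was lower, where 32.2% of all genes tested were higher and 34.7% lower. AREG was 2.66 ± 0.10 higher (adjusted p = 2.13e-15) and EREG 2.09 ± 0.07 higher (adjusted p = 2.81e-16), whereas HBEGF (0.37 ± 0.10, adjusted p = 0.00275) and NRG1 (0.24 ± 0.06, adjusted p = 6.04e-04) were closer to Sen (IR). EGFR was 0.81 ± 0.07 higher (adjusted p = 2.6e-10), and ERBB2 fell by 1.64 ± 0.09 on the log2 scale (adjusted p = 8.31e-13).

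Ordered by mean CPM, the groups did not rank alike for every member, and outside EREG some neighbouring steps did not pass the test. EREG rose in the order Prol (5.83), Sen (IR) (31.5), Sen (IR) + CCCP (36.0), mtDNA (76.0), acetate (97.4) and both agents (134.2), and each step differed by the test. The step from mtDNA to acetate was 0.36 ± 0.07 (adjusted p = 1.16e-04), in a comparison where 61.3% of all genes tested were called. AREG had the same order up to mtDNA, at 2.39, 6.15, 21.8 and 26.8 CPM, and then both agents (39.0) and acetate alone (41.3), which did not differ by the test. NRG1 fell into levels of 34.6 CPM in Prol, 103.3 in Sen (IR) + CCCP and 110 with mtDNA, 180 in Sen (IR), 203.4 with acetate and 213.3 with both. Sen (IR) + CCCP and mtDNA did not differ by the test, nor did acetate and both agents. HBEGF spanned only 10.5 to 17.9 CPM, and of its 5 neighbouring steps only the lowest, from Prol to Sen (IR) + CCCP, passed the test (0.28 ± 0.11, adjusted p = 0.0241). EGFR was lowest in Sen (IR) (368.5), then Prol (436.9) and Sen (IR) + CCCP (508.4), each apart from the next, while that group, mtDNA (576.1), acetate (579.5) and both agents (647.5) did not differ step by step. ERBB2 was highest in Sen (IR) (68.1) and Prol (62.1), lower in Sen (IR) + CCCP (33.0) and mtDNA (29.2), and lowest with both agents (22.0) or acetate (21.9).

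Between genes, on the TPM scale, the ligand with the largest mean share was HBEGF in Prol, NRG1 in Sen (IR) and AREG in the 4 cleared groups. In Prol the 6 ligands summed to 33.9 ± 3.2 TPM (SD over 3 libraries), of which HBEGF made up 38.6 ± 1.6% and NRG1 34.0 ± 2.1%. In Sen (IR) the sum was 118.6 ± 3.5 TPM and NRG1 alone made up 53.4 ± 1.1%. After clearance, AREG was the leading ligand at 40.2 ± 1.8% of 175.9 ± 3.7 TPM, with NRG1 at 27.8 ± 1.6%. With acetate the sum was 325.3 ± 8.7 TPM and the order was AREG (38.5 ± 1.5%), NRG1 (27.6 ± 1.1%) and EREG (26.2 ± 0.3%). With mtDNA it was 224.4 ± 10.5 TPM, and EREG (30.1 ± 1.8%) stood above NRG1 (22.0 ± 0.9%) and below AREG (36.8 ± 1.0%). With both agents the sum was 351.4 ± 9.2 TPM, and AREG (33.0 ± 1.6%) and EREG (32.6 ± 1.3%) overlapped across libraries. The sums before and after CCCP carry the shift of the TPM scale given above, whereas the shares are taken within each library. Among the receptors, EGFR was the most abundant in every group, between 117.3 and 253.2 TPM on average, ERBB2 was between 10.4 and 26.2 TPM, and ERBB3 was under 0.5 TPM in every library. The receptors that NRG1 is known to bind were thus near the limit of detection, since ERBB4 also did not pass the filter, with 0 to 12 counts per library.

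**Figure D3:**
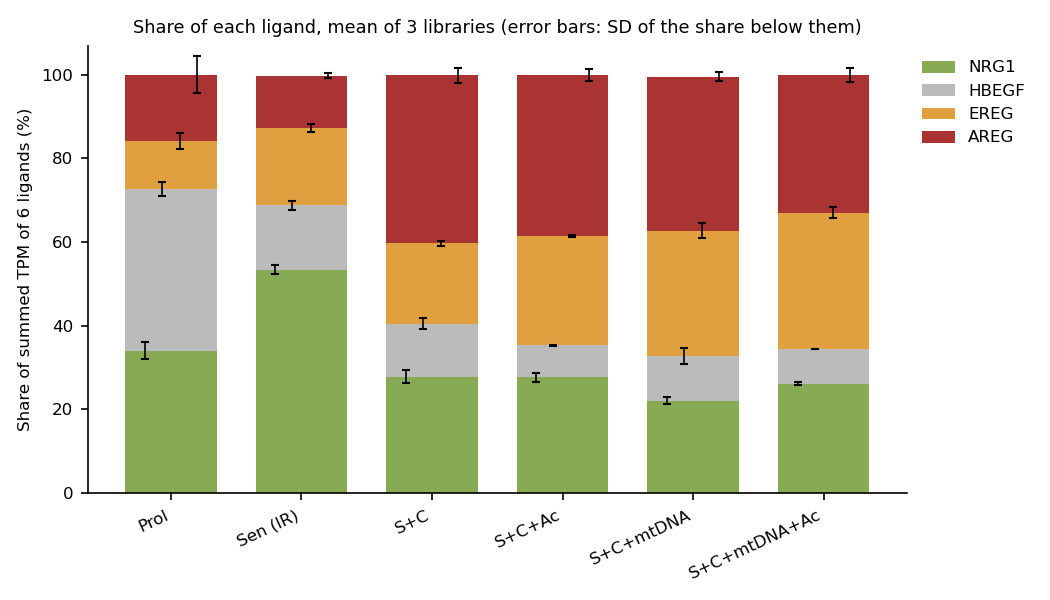
Share of each ligand (vertical axis, percent of the summed TPM of the 6 ligands, mean of 3 libraries, with SD bars) in the 6 groups (horizontal axis), where BTC and TGFA are too small to be drawn. NRG1 made up 53.4% in Sen (IR), AREG 40.2% after CCCP, and AREG and EREG 33.0% and 32.6% with both agents.

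The remaining members of the family were scarce. Of 5 further ligands (EGF, EPGN, NRG2, NRG3 and NRG4) and ERBB4, only EGF itself passed the filter. EGF had 22 to 53 counts per library in Prol, 71 to 125 in Sen (IR), 11 to 23 after CCCP, 9 to 20 with mtDNA, 8 to 10 with acetate and 5 to 10 with both. It rose from Prol to Sen (IR) by 1.35 ± 0.23 (adjusted p = 2.56e-05), fell after CCCP by 2.54 ± 0.25 on the log2 scale (adjusted p = 8.51e-09), and fell further with acetate by 1.20 ± 0.35 (adjusted p = 0.00548), so it was lower in the cleared and acetate-treated cells in which AREG was higher. EPGN, which lies beside EREG on chromosome 4, had 0 to 5 counts per library.

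The tested neighbours of EREG and AREG included the CXC chemokine genes. Within 500 kb on either side, 9 protein-coding genes were tested, of which 6 were no members: CXCL1, CXCL5, CXCL3, CXCL2, MTHFD2L and PARM1. All 6 were higher in Sen (IR) than in Prol, as were EREG and AREG, beside 26.7% of all genes tested. After CCCP 5 of the 6 were lower, with log2 changes of -3.71 ± 0.25 for CXCL2, -4.05 ± 0.10 for CXCL5, -4.45 ± 0.15 for CXCL3 and -1.24 ± 0.19 for PARM1, and MTHFD2L was higher, while AREG rose by 1.82 and EREG by 0.19. CXCL1 went from 6023, 3954 and 3697 counts in Sen (IR) to 6, 6 and 0 counts, a fitted log2 change of -10.19 ± 0.23 that rests on those few counts. The 2 ligands thus parted from the 4 chemokine genes, whose starts lie between -495.8 and -265.9 kb relative to that of EREG. With acetate 3 of the 6 were higher (CXCL1, CXCL2 and CXCL3) and CXCL5 was lower, and with mtDNA 3 were higher (CXCL2, CXCL3 and CXCL5) and none lower. Of all genes tested, 34.0% were higher and 31.3% lower after CCCP, 28.8% and 28.3% with acetate, and 10.7% and 7.40% with mtDNA.

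**Figure D4:**
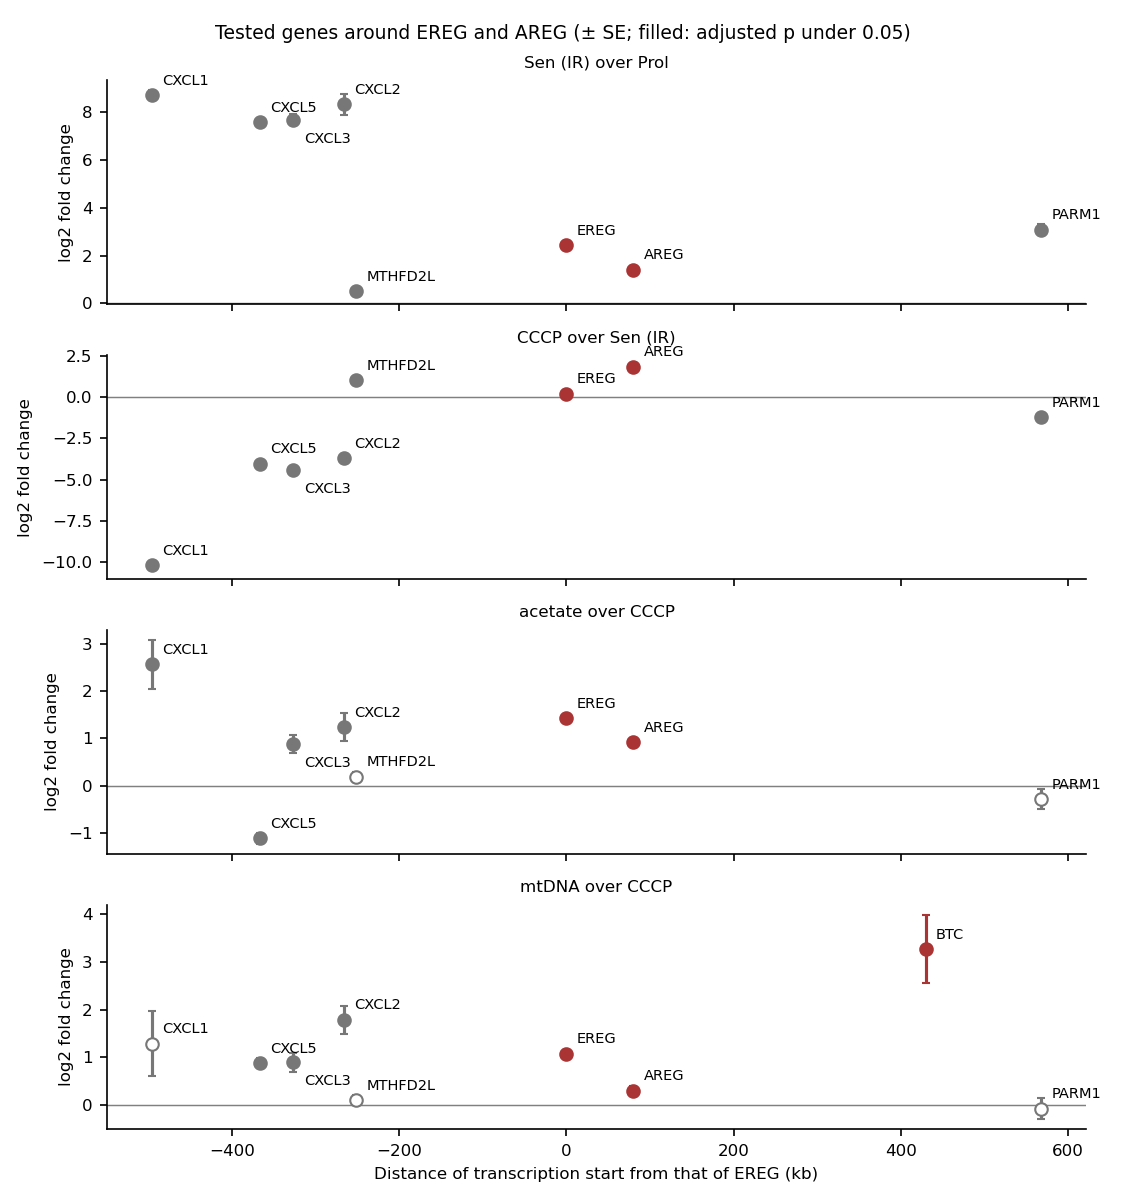
Log2 fold change (vertical axis, ± SE) of the tested genes around EREG and AREG against the distance of their starts from that of EREG in kb (horizontal axis), in 4 comparisons, with members in red and filled points for an adjusted p under 0.05; BTC is drawn only for mtDNA, the group through which it passed the filter. After CCCP, EREG (0.19) and AREG (1.82) were higher where the 4 CXC genes were lower.

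Most genes of the ligand shedding list were lower after CCCP. The list of ligand shedding held 9 genes, of which 8 were lower and none higher in Sen (IR) + CCCP than in Sen (IR). Of all genes tested, 31.3% were lower and 34.0% higher. The list had a median log2 change of -0.81 beside 0.03 over all genes tested. The log2 change was -3.08 ± 0.14 for ADAM19, a membrane protease (adjusted p = 2.4e-14), and -2.18 ± 0.09 for the related ADAM12 (adjusted p = 1e-14). It was -2.76 ± 0.17 for RHBDF2, which escorts the ligand-cutting protease ADAM17 to the surface (adjusted p = 4.51e-12), and -2.03 ± 0.13 for TIMP3, an inhibitor of such proteases (adjusted p = 6.52e-12). The group therefore holds an inhibitor that moved with the proteases. ADAM17 itself had a mean of 102.4 ± 8.57 CPM in Sen (IR) and 65.6 ± 1.30 CPM in Sen (IR) + CCCP (SD, n = 3). The means of ADAM10, also on the list, were 663.9 ± 64.7 and 500.5 ± 20.5 CPM. With acetate, 5 of the 9 were higher and ADAM12 was lower (median 0.23), with ADAM19 at 1.78 ± 0.13 (adjusted p = 2.14e-10). With mtDNA, 2 were higher and 2 lower. The shares of all genes tested were 28.8% higher and 28.3% lower with acetate, and 10.7% and 7.40% with mtDNA.

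Feedback inhibitors of the receptors and of ERK went mostly the other way. Of 12, 10 were higher and 2 lower after CCCP (median 0.43), among them SPRY2 at 1.22 ± 0.08 (adjusted p = 1.19e-11) and DUSP4 at 1.05 ± 0.11 (adjusted p = 2.14e-08). Of the 2 that fell, LRIG1, which promotes receptor degradation, fell by 2.23 ± 0.06 (adjusted p = 1.65e-17) and ERRFI1, which blocks the EGFR kinase, fell by 1.64 ± 0.06 (adjusted p = 1.63e-15). With acetate 9 were higher and 2 lower (median 0.36), and with mtDNA 7 were higher and none lower (median 0.18). From Prol to Sen (IR), where AREG, EREG, NRG1 and HBEGF rose, 2 were higher and 7 lower (median -0.16). Beside these counts, 34.0% of all genes tested were higher and 31.3% lower after CCCP, and 28.8% and 28.3% with acetate. With mtDNA the shares were 10.7% and 7.40%, and from Prol to Sen (IR) 26.7% and 29.9%.

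Transcripts that respond to ERK had a like division. Of 12, 3 were higher and 7 lower from Prol to Sen (IR) (median -0.35), led by EGR1, an immediate-early transcription factor, which fell by 1.87 ± 0.09 (adjusted p = 7.65e-14). After CCCP 9 were higher and 2 lower (median 0.48). FOS rose by 3.30 ± 0.15 (adjusted p = 2.4e-14) and SPHK1 by 2.09 ± 0.20 (adjusted p = 3.6e-09), whereas IER3 fell by 2.16 ± 0.09 (adjusted p = 3.43e-15). With acetate 6 were higher and 4 lower (median 0.19), with IER3 at 2.03 ± 0.09 (adjusted p = 1.58e-14) and FOS falling by 1.07 ± 0.11 (adjusted p = 3.98e-08). With mtDNA 9 were higher and none lower (median 0.34), among them EGR1 at 0.64 ± 0.09 (adjusted p = 9.2e-06). Over all genes tested, 26.7% were higher and 29.9% lower from Prol to Sen (IR), and 34.0% and 31.3% after CCCP. With acetate the shares were 28.8% and 28.3%, and with mtDNA 10.7% and 7.40%. The transcripts were measured without the proteins, so the counts of this list do not measure ERK activity.

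Of 13 genes of the RAS-ERK cascade, 6 were higher and 4 lower after CCCP, 6 and 2 with acetate, and none in either direction with mtDNA. Among all genes tested, 34.0% were higher and 31.3% lower after CCCP, 28.8% and 28.3% with acetate, and 10.7% and 7.40% with mtDNA. MAPK3, which encodes ERK1, fell by 1.60 ± 0.08 after CCCP (adjusted p = 2.61e-13) and rose by 1.16 ± 0.08 with acetate (adjusted p = 9.79e-11), and HRAS rose by 0.78 ± 0.07 after CCCP (adjusted p = 9.53e-10). Of 14 receptor adaptors and trafficking genes, 8 were higher and 2 lower after CCCP, 5 and 2 with acetate, and 1 and none with mtDNA, including the ubiquitin ligase CBL, which rose by 0.88 ± 0.08 after CCCP (adjusted p = 4e-09), and the adaptor GAB2, which rose by 1.05 ± 0.12 with acetate (adjusted p = 2.28e-07). From Prol to Sen (IR), 3 cascade genes were higher and 6 lower, and 5 adaptor genes were higher and 8 lower (26.7% and 29.9% of all genes tested). The counts of these 2 lists are not read as a response of the pathway.

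**Figure D5:**
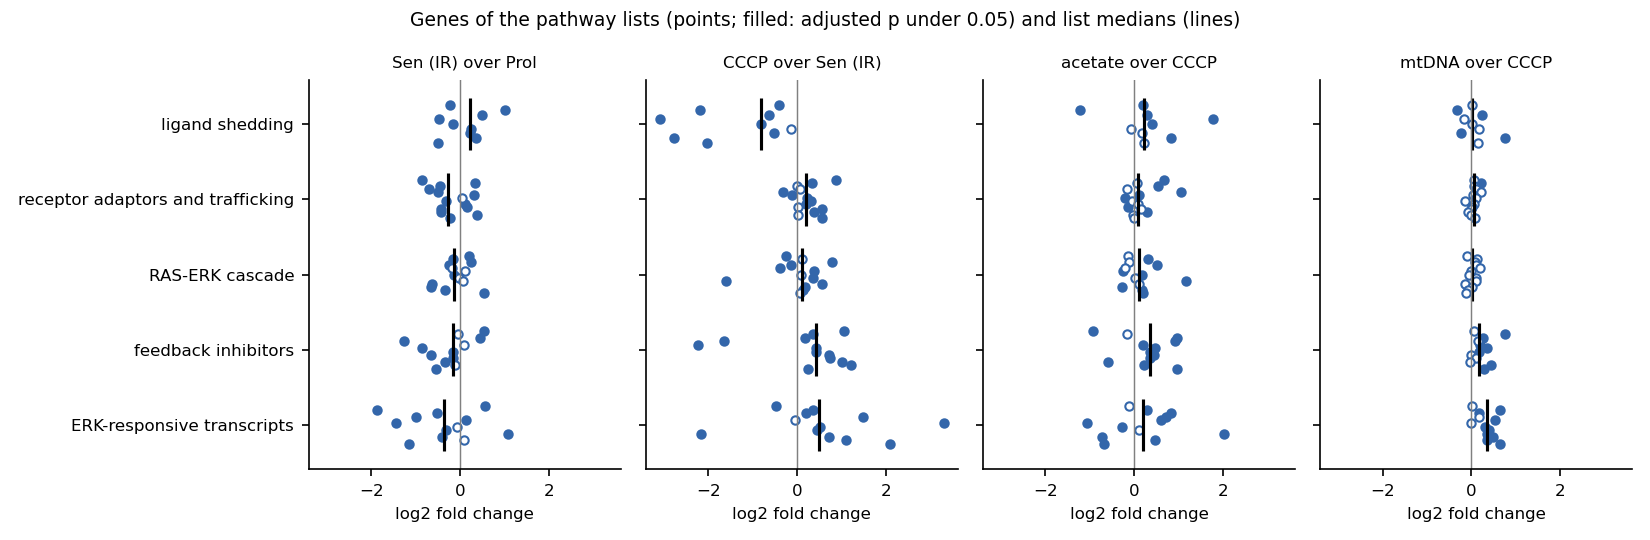
Log2 fold changes (horizontal axis) of the genes of 5 pathway lists (rows; points are genes, filled for an adjusted p under 0.05, and vertical lines are list medians) in 4 comparisons. After CCCP the shedding list had a median of -0.81, while the feedback inhibitors and the ERK-responsive transcripts had medians of 0.43 and 0.48.

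Genes whose pattern was most like that of a member were sought by the root mean square difference of log2 CPM, each centred on its own mean, over the 18 libraries. For AREG they were CLGN, a chaperone of the endoplasmic reticulum (0.23), SLC7A11, the cystine transporter (0.23), and PTPN22 (0.36). For EREG they were LONRF3 (0.34), SLC7A11 (0.48) and MFAP3L (0.49). SLC7A11 was thus among the nearest 3 genes of both. For NRG1 they were the pseudogene CKS1BP1 (0.13), AC073283.2 (0.25) and STC1 (0.28). On the scale of log2(TPM + 1), CLGN and SLC7A11 were again the nearest to AREG. For EREG only SLC7A11 stayed among the nearest 3, beside NQO1 and ATP6V0D2, and for NRG1 the nearest was KYNU. These distances describe the libraries and have no test.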

How the data were processed

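Per the submitters' processing notes, the tools named are Trimmomatic 0.36 (trimming), STAR 2.5.2b (alignment) and featureCounts of Subread 1.5.2 (counting), with the build GRCh38. The methods state that uniquely mapped reads over exons were counted. The authors deposited raw counts per gene, and TPM whose computation is not given in the sources used here. Counts were fitted with edgeR 4.0.16 (R 4.3.3): TMM normalisation, filterByExpr by group, 1 quasi-likelihood model with 6 group means over all 18 libraries (24624886 to 46224280 counts) and Benjamini-Hochberg adjustment over 16994 genes. The step was tested on simulated data. TPM served for levels between genes, and as a second scale where named.

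The members and gene lists were chosen with earlier results of these data known. All members are named. Of each pathway list, at most 4 genes are named, those with the largest changes past the threshold, and ADAM10 and ADAM17 are given beside them. Like-pattern genes are the nearest 3 for tested members whose group means span more than 2 on the log2 CPM scale. Those of BTC are not reported here. The window around EREG and the motifs were chosen after the values were seen. The study's methods give DESeq2 for another comparison, and DESeq2 1.42.0 was an alternative here, beside other filters and scalings, a replicate block and leaving out each library.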

Additional observations from a re-analysis of the deposited data

Results flagged for a closer look

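On the log2 scale, the change of EREG with mtDNA differed between cells without and with acetate. In mean CPM, EREG went from 36.0 to 76.0 without acetate and from 97.4 to 134.2 with it, and a difference on that scale was not tested. The interaction term was -0.61 on the log2 scale (adjusted p = 0.00369), with EREG higher in all 3 mtDNA libraries in both settings. Under the alternatives it ranged from -0.70 without mtDNA replicate 2 to -0.55 without mtDNA replicate 1 and kept its call in each. Without the combined-group library that stood apart, it was -0.67 (adjusted p = 4.22e-05).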

How the results depend on the processing

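Of 924 values of single members under the alternatives, 850 kept their direction and their side of the threshold, 39 lost a call, 10 gained one and 25 changed sign. The study's own rule was a nominal DESeq2 p under 0.05 with a log2 change above 0.5. By it, 4 members in place of 7 were called from Prol to Sen (IR) and 3 in place of 5 after CCCP. For acetate added to mtDNA it called 4 in place of 7 (BTC counted in both), and for mtDNA added to acetate 0 in place of 1. Both counts of 7 include BTC. It passed the filter only through the mtDNA group, so its calls are not given as tests. That rule does not count log2 changes of 0.5 or less. For the last comparison, the DESeq2 Wald test and a fit to the groups compared alone each called 2, and leaving out single libraries gave 1 to 2. The cause of the other differences was not tested.

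Signs changed only in values that passed no test. With DESeq2 size factors, the DESeq2 Wald test and the study's rule, ERBB2 for mtDNA added to acetate became 0.0244, 0.0304 and 0.0304, the EGFR interaction 0.0084, 0.0101 and 0.0101, and the NRG1 interaction 0.0052, 0.0066 and 0.0066. Leaving out single libraries spread ERBB2 for mtDNA added to acetate from -0.114 to 0.0625 and the interactions of EGFR from -0.100 to 0.0671, HBEGF from -0.0131 to 0.189, NRG1 from -0.0807 to 0.0246, ERBB3 from -1.15 to 0.60 and BTC from -5.68 to 0.34. It spread ERBB3 from -0.26 to 0.73 with acetate, -0.50 to 1.02 with mtDNA, -0.0826 to 0.939 with both, and -1.08 to 0.0371 with both against Sen (IR).

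Replicate numbers did not pair the libraries: deviations of libraries with the same number correlated at -0.07 to 0.09. A fit with the replicate block called 6 members from Prol to Sen (IR), BTC included but without ERBB3 (-1.28, adjusted p = 0.0578), and changed no other member's call. The number of all genes with an interaction, 112, was 284 by the DESeq2 Wald test, 413 without the filter, 622 by the study's rule and 55 to 403 on leaving out single libraries, with the highest without the combined-group library that stood apart. Depth limits TGFA, BTC and ERBB3, whose counts are too few to show modest differences.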
